A study of Rattus norvegicus with 10 samples.

Results

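The genes of sterol and fatty acid synthesis that the SREBP transcription factors control, together with the genes that regulate the SREBPs and the genes that store and move the sterol made, were examined in rat macrophages that had taken up myelin. Members were the probe sets whose only gene symbol in the array annotation was 1 of 35 chosen genes. Of these, 34 had such a probe set, and Hmgcs1 was not analysed here. The 34 genes were read by 56 of the 31042 probe sets tested, among 14217 genes with a symbol of their own. Cells were resident peritoneal macrophages of Wistar rats (strain Hsdcpb:WU; the labels give a weight and not an age), collected by lavage and kept as the adherent fraction in medium with serum. Mye-macrophages (n = 5) received 100 µg/ml of myelin, purified from rat brain on a density gradient, for 3 days, and control macrophages (n = 5) were kept for the same 3 days without myelin. IFNγ and IL-1β (100 ng/ml) were then given to both groups for 9 hours, so that every value below describes cells in a pro-inflammatory setting and none describes resting cells. RNA was read on Affymetrix rat GeneChips, 1 per sample, and the values are log2 RMA signals. Whether each sample was a rat of its own is not stated in the labels, so p-values measure the spread between these samples, which may be technical.

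SREBP-2 and SREBP-1 are made as precursors in the membrane of the endoplasmic reticulum, where the escort protein SCAP binds them. When membrane sterol is low, SCAP carries them to the Golgi, the site-1 and site-2 proteases release the active part, and genes of sterol and fatty acid synthesis are switched on. When sterol is plentiful, INSIG proteins hold SCAP back and these genes fall quiet, which makes their transcripts a common readout of how a macrophage handles a load of cholesterol. Myelin is rich in cholesterol, so the comparison addresses whether cells fed with it held these genes at another level.

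No member passed the threshold in either direction. With limma, the replicate number as a block and Benjamini-Hochberg adjustment over all probe sets, 0 of the 56 member probe sets were called at an adjusted p under 0.05, against 128 of all 31042 (0.412%), and the lowest adjusted p was 0.155, for Cyp51. When adjustment was restricted to the more variable 50% of probe sets, which kept 36 member probe sets, again 0 members were called against 2.69% of all probe sets kept, with a lowest adjusted p of 0.0781. At an unadjusted p under 0.05 there were 11 member probe sets (19.6%; 5 higher and 6 lower in mye-macrophages), against 12.1% of all probe sets. That count was 6 without replicate 1 (10.7%, against 9.39% of all probe sets) and 7 without replicate 2 (12.5%, against 10.1%). It was 11 without replicate 3 (19.6%, against 14.6%), 8 without replicate 4 (14.3%, against 9.59%) and 9 without replicate 5 (16.1%, against 9.94%). In 8 (14.3%; 3 higher and 5 lower) all 5 pairs of samples with the same number moved one way, against 12.8% of all probe sets. The signals of the groups overlapped in all 56, and were apart in 0.734% of all probe sets. These are whole cultures, in which fewer cells of a type and less RNA per cell cannot be told apart.

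The differences were small in size as well as unresolved. On the probe set with the highest mean for each gene, the difference between mye-macrophages and control macrophages had a median of -0.03 on the log2 scale over the 34 genes, against 0.01 over all genes, and ran from -0.28 (Cyp51) to 0.27 (Mbtps1). It was below 0 for 21 genes and above 0 for 13, where 6839 of all 14217 genes lay below 0. The median size was 0.0874, against 0.0752 over all genes. Within single pairs the median over the members was -0.018, -0.089, -0.012, 0.022 and -0.053 in pairs 1 to 5, so 4 of 5 lay slightly below 0. Over all member probe sets the 95% confidence intervals from the fit with the block reached no lower than -0.44 and no higher than 0.54. Each interval is for a single probe set and is not adjusted for their number, so a larger change is not excluded.

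**Figure D1:**
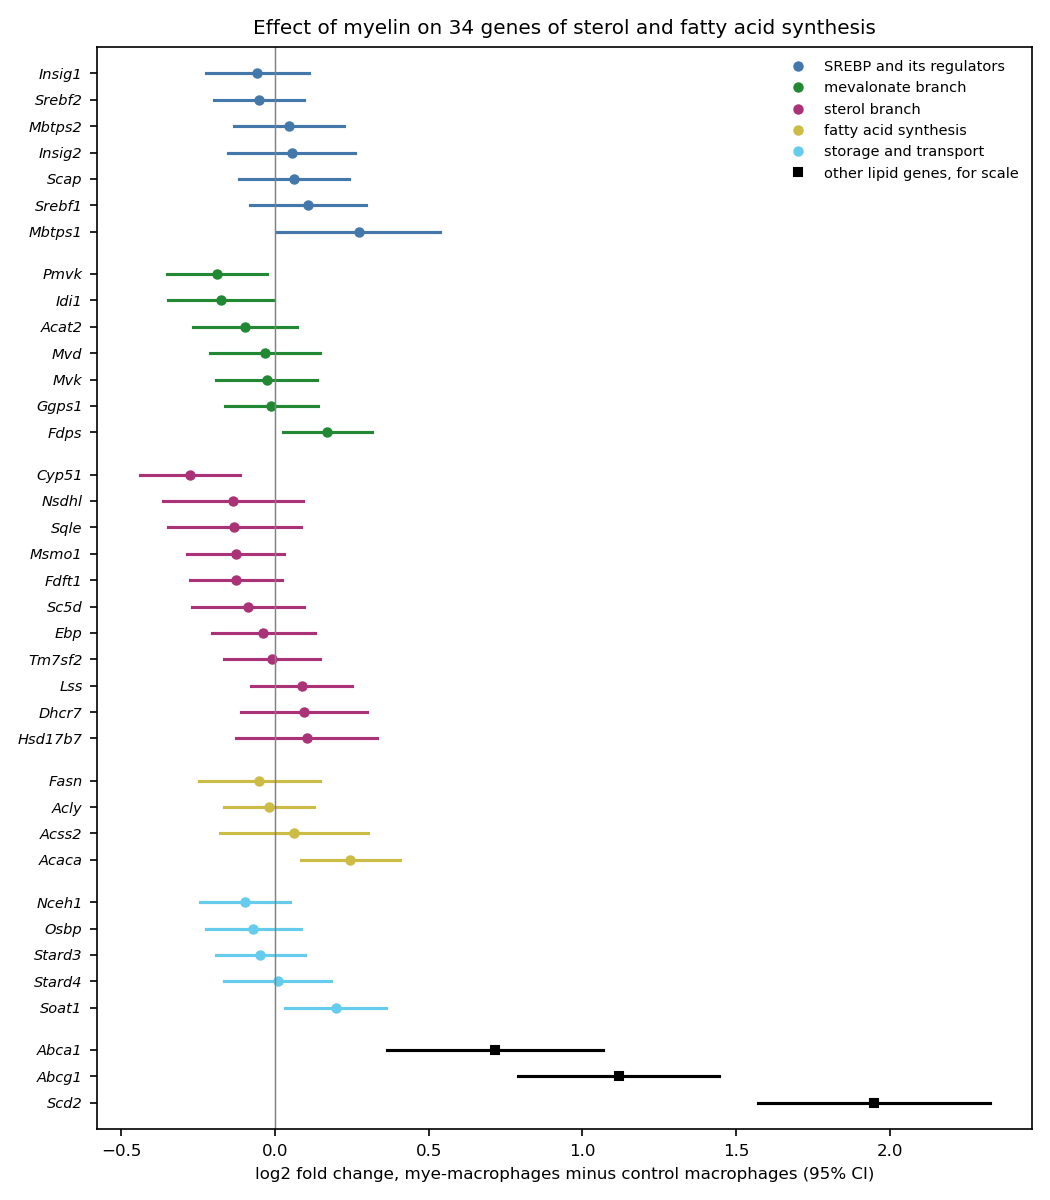
Log2 fold change (mye-macrophages minus control macrophages) of the 34 genes on their brightest probe sets, by role, with 95% confidence intervals from limma with the replicate block (n = 5 per group). Black squares are 3 other lipid genes, also on their brightest probe sets, for scale. The 34 points lie between -0.28 and 0.27, to the left of Abca1 (0.72), Abcg1 (1.12) and Scd2 (1.95).

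The same arrays resolved larger changes on some probe sets in neighbouring parts of lipid handling. Abcg1, a cholesterol exporter switched on by the sterol sensor LXR, had signals of 6.36, 6.55, 5.59, 5.31 and 5.74 in control macrophages 1 to 5 and 7.60, 8.28, 6.32, 6.61 and 6.35 in mye-macrophages 1 to 5, higher in all 5 pairs (log2 fold change 1.12, 95% CI 0.79 to 1.45, limma with the block, adjusted p = 0.0224). On its dimmer probe sets Abcg1 had 0.59 and 0.24, higher in 5 of 5 pairs on both, with adjusted p = 0.302 and 0.304 from limma. Abca1, the exporter that loads apolipoprotein particles, had 0.72 (CI 0.36 to 1.07) with adjusted p = 0.0947 from limma, and 0.0473 over the more variable probe sets. Its dimmer probe sets had 0.63, 0.70 and 0.16 (adjusted p = 0.0744, 0.0660 and 0.792 from limma). Of the 5 genes of LXR-driven efflux and remodelling measured, 1 was called higher and 0 lower. Apoe (0.38), Lpcat3 (0.31) and Mylip (0.25) had values above 0 and did not pass.

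Promoter sequence is shown for 4 members whose transcripts carry the results below, with the matches to boxes linked to SREBPs and their partners. None of the 4 holds the sterol response spelling searched for. Windows from 250 bases before to 50 after the annotated start were taken from RefSeq (build GRCr8) and matched 28 of the 34 genes by gene ID. Pmvk, Fdft1, Sqle, Acaca, Fasn and Stard4 had no window. Both strands were searched for CCAAT (the NF-Y box), GGGCGG (the Sp1 box), CACGTG (an E-box) and TCACNCCAC (a sterol response element). Capitals mark matches, each stretch is printed 5′ to 3′ on the strand of its gene, and CCGCCC and ATTGG are GGGCGG and CCAAT on the opposite strand. Only matches before the start are printed, so a GGGCGG of Cyp51 at position 40 is not shown. The stretches are Insig1 at chr4:8057833-8057985 (minus strand), Cyp51 at chr4:30991556-30991581 (plus strand), Idi1 at chr17:66547545-66547600 (minus strand) and Fdps at chr2:176804887-176805000 (minus strand).
Insig1: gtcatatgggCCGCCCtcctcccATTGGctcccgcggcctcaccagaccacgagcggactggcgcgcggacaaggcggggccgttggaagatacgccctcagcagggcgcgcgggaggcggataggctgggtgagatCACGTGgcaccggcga
Cyp51: gcagaaagccCCGCCCcgtctgtgac
Idi1: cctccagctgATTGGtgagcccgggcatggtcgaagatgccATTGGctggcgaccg
Fdps: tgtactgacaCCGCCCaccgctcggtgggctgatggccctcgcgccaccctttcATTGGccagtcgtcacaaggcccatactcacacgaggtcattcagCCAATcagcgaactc
CCAAT was found in 20 of the 28 members with a window (71.4%), against 37.5% of all 33469 windows. GGGCGG was found in 22 (78.6%), against 33.1%. CACGTG was in 4 (Insig1, Nceh1, Sc5d and Scap; 14.3% against 6.42%), and the TCACNCCAC spelling was in 0, against 1.12% of all windows. Members were counted by gene (28 genes with 29 windows) and the rest by window. These matches are letters in a window and not sites shown to be bound.

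Among the regulators, no component of the SREBP switch was called (0 of 7 genes, median log2 fold change 0.05). Insig1 encodes the retention protein of SCAP and is itself a classical SREBP target. Signals of Insig1 were 7.74, 8.15, 8.88, 9.04 and 8.31 in control macrophages 1 to 5 and 7.63, 8.34, 8.80, 8.95 and 8.11 in mye-macrophages 1 to 5. Replicates 3 and 4 were high and replicate 1 was low in both groups, which overlapped almost entirely. The difference was -0.06 (95% CI -0.23 to 0.11, limma with the block, adjusted p = 0.818), lower in 4 of 5 pairs. Insig2, the isoform less dependent on SREBP, had 0.05 and 0.11 on its probe sets.

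Srebf2 encodes SREBP-2, the factor with a preference for sterol genes. Its signals were 5.79, 5.61, 5.75, 6.38 and 5.91 in control macrophages 1 to 5 and 5.83, 5.52, 5.74, 6.30 and 5.78 in mye-macrophages 1 to 5. Replicate 4 stood highest in both groups, and the other samples overlapped. The difference was -0.05 (CI -0.20 to 0.09, adjusted p = 0.806 from limma). Srebf1 encodes SREBP-1, which favours fatty acid genes and is also an LXR target. Its signals were 5.16, 5.22, 5.21, 5.46 and 5.28 in control macrophages 1 to 5 and 5.20, 5.68, 5.19, 5.50 and 5.30 in mye-macrophages 1 to 5. Mye-macrophage replicate 2 was the highest of the 10 samples, and the value of 0.11 (CI -0.08 to 0.30, adjusted p = 0.673 from limma) became 0.02 without replicate 2. The dimmer Srebf1 probe set had 0.06.

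Mbtps1, the site-1 protease, had the largest positive value of the group. Its signals were 4.65, 4.43, 4.89, 5.32 and 4.79 in control macrophages 1 to 5 and 5.48, 4.54, 5.18, 5.55 and 4.69 in mye-macrophages 1 to 5. The groups overlapped, and pair 1 alone differed by 0.83 while the other 4 pairs differed by -0.11 to 0.30. The log2 fold change of 0.27 (CI 0.0060 to 0.54, adjusted p = 0.402 from limma) was therefore 0.13 without replicate 1. Mbtps2, the site-2 protease, had 0.04, and the SCAP gene Scap had 0.06 and -0.06 on its probe sets.

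In the mevalonate branch, which makes the isoprenoid units of sterols, 0 of 7 genes were called (median -0.03). Neighbouring steps had values of opposite sign. Idi1, the isomerase of isopentenyl diphosphate, had signals of 6.35, 6.83, 6.46, 6.50 and 6.65 in control macrophages 1 to 5 and 6.08, 6.52, 6.26, 6.59 and 6.46 in mye-macrophages 1 to 5. Pair 4 was the exception to a lower signal with myelin. The log2 fold change was -0.18 (CI -0.35 to -0.0043, adjusted p = 0.401 from limma), and on the second probe set it was -0.22, lower in 5 of 5 pairs (CI -0.37 to -0.07, adjusted p = 0.209).

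Pmvk, the phosphomevalonate kinase, had signals of 6.02, 6.29, 6.10, 5.79 and 6.34 in control macrophages 1 to 5 and 5.79, 6.09, 6.10, 5.43 and 6.19 in mye-macrophages 1 to 5. The signal was lower with myelin in 5 of 5 pairs, by next to nothing in pair 3, and the groups overlapped (-0.19, CI -0.35 to -0.02, adjusted p = 0.342 from limma). Fdps, the synthase of farnesyl diphosphate that acts just after Idi1, had signals of 7.18, 6.97, 7.28, 7.73 and 7.09 in control macrophages 1 to 5 and 7.45, 7.13, 7.42, 7.88 and 7.22 in mye-macrophages 1 to 5. It was higher with myelin in 5 of 5 pairs, by 0.26, 0.16, 0.15, 0.15 and 0.13, the most even differences among the members given sample by sample (0.17, CI 0.03 to 0.31, adjusted p = 0.325 from limma). Idi1 and Fdps, whose differences had opposite signs and were not called, both hold CCAAT matches in the stretches printed above. Any link between the matches and the differences was not tested. Acat2, the thiolase of the cytosol, had -0.10. Mvk (-0.03), Mvd (-0.03) and Ggps1 (-0.01), the kinase, decarboxylase and geranylgeranyl synthase, lay closer to 0.

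In the sterol branch, from squalene to cholesterol, 0 of 11 genes were called, and 8 of the 11 had values below 0 (median -0.09). Cyp51, the lanosterol demethylase, had the largest size and the lowest p of all members. Signals of Cyp51 were 5.39, 5.63, 5.54, 5.85 and 5.65 in control macrophages 1 to 5 and 4.91, 5.36, 5.29, 5.72 and 5.39 in mye-macrophages 1 to 5. They were lower with myelin in 5 of 5 pairs, most in pair 1 (-0.49) and least in pair 4 (-0.13), yet the groups overlapped. The difference was -0.28 (SE 0.07, CI -0.44 to -0.11, adjusted p = 0.155 from limma), which is 1.21-fold lower. The adjusted p was 0.0628 with a trended and robust variance prior and 0.0872 over probe sets above the median signal. The name of this probe set (1367979_s_at) marks it as shared by more than 1 transcript, and the dimmer probe set of the gene had -0.10 (CI -0.25 to 0.06).

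Sqle, the squalene epoxidase and a rate-limiting step, had signals of 5.79, 5.68, 5.54, 6.14 and 5.81 in control macrophages 1 to 5 and 5.37, 5.31, 5.71, 6.17 and 5.74 in mye-macrophages 1 to 5. It was lower in pairs 1, 2 and 5, higher in pairs 3 and 4, and highest in replicate 4 of both groups (-0.13, CI -0.35 to 0.08, adjusted p = 0.643 from limma). The value was -0.06 without replicate 1, -0.07 without replicate 2 and -0.21 without replicate 3. Nsdhl, which removes the same methyl carbons that Msmo1 oxidises, had 5.73, 5.75, 5.78, 5.64 and 5.48 in control macrophages 1 to 5 and 5.18, 5.63, 5.57, 5.65 and 5.66 in mye-macrophages 1 to 5. Mye-macrophage replicate 1 lay below all the others, so that the value of -0.14 (CI -0.36 to 0.09, adjusted p = 0.650) was -0.03 without replicate 1.

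The remaining steps of the branch were read as follows. Fdft1, the squalene synthase, had -0.13 (lower in 5 of 5 pairs, adjusted p = 0.495 from limma) and -0.20 on its probe sets. Msmo1, the methylsterol monooxygenase, had -0.13 (CI -0.29 to 0.03), and Sc5d, the desaturase of the last steps, had -0.09, -0.14 and -0.18. Lss, the lanosterol synthase, had 0.09 and -0.03. Dhcr7, the final reductase, had 0.09, and Hsd17b7, the ketoreductase, had 0.10 and -0.12. Ebp (-0.04), the sterol isomerase, and Tm7sf2 (-0.01), a sterol reductase, were nearest to 0. Where a gene had several probe sets (18 genes), 13 had the same sign on all of them.

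**Figure D2:**
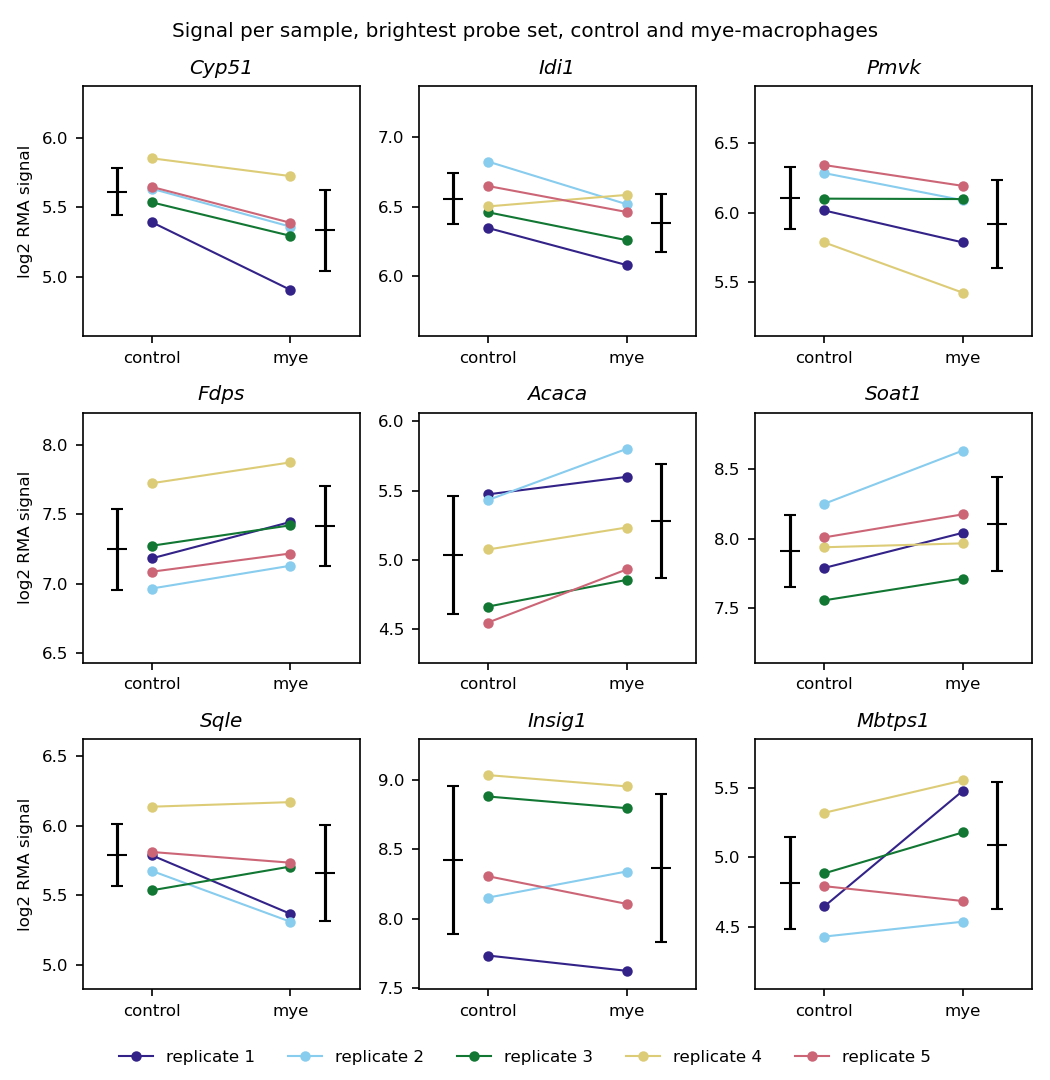
Log2 RMA signal per sample of 9 members on their brightest probe sets; lines join the samples of a pair and black bars give mean ± SD (n = 5). Cyp51 and Pmvk were lower and Fdps, Acaca and Soat1 higher with myelin in 5 of 5 pairs, while the lines of Insig1 (difference -0.06) lie far apart and nearly flat.

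In fatty acid synthesis, 0 of 4 genes were called (median 0.02). Acaca encodes acetyl-CoA carboxylase, the committed step. Its signals were 5.47, 5.43, 4.67, 5.08 and 4.55 in control macrophages 1 to 5 and 5.60, 5.80, 4.86, 5.23 and 4.93 in mye-macrophages 1 to 5. It was higher with myelin in 5 of 5 pairs, while replicates 1 and 2 were high and replicates 3 and 5 low in both groups (0.25, CI 0.08 to 0.41, adjusted p = 0.205 from limma). A second, dim probe set, below the median signal of the arrays, had 0.09 (CI -0.08 to 0.27).

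Fasn, the synthase that follows it, had 5.23, 5.43, 5.04, 4.70 and 4.85 in control macrophages 1 to 5 and 4.91, 5.30, 4.89, 4.85 and 5.04 in mye-macrophages 1 to 5. Pairs 1 to 3 were lower and pairs 4 and 5 higher with myelin, and the groups overlapped (-0.05, CI -0.25 to 0.15, adjusted p = 0.868 from limma). The dimmer Fasn probe set had -0.23, lower in 5 of 5 pairs (CI -0.40 to -0.06, adjusted p = 0.251), so the probe sets of this gene do not give 1 size. Acly, the citrate lyase that supplies acetyl-CoA, had -0.02 (CI -0.16 to 0.13). Acss2, the acetyl-CoA synthetase of the cytosol, had 1.85, 1.92, 1.94, 2.34 and 2.19 in control macrophages 1 to 5 and 2.39, 2.08, 1.94, 2.14 and 2.01 in mye-macrophages 1 to 5. All of its signals lay near or below the median of all values (2.32), where RMA signals carry little information about a transcript (0.06, CI -0.18 to 0.30, adjusted p = 0.871 from limma).

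Among genes of storage and transport, 0 of 5 were called (median -0.05). Soat1, the enzyme that esterifies cholesterol for storage in lipid droplets of macrophages, had 7.79, 8.25, 7.56, 7.94 and 8.01 in control macrophages 1 to 5 and 8.04, 8.63, 7.71, 7.97 and 8.18 in mye-macrophages 1 to 5. It was higher with myelin in 5 of 5 pairs, most in replicate 2 and least in replicate 4, with overlapping groups (0.20, CI 0.03 to 0.36, adjusted p = 0.317 from limma). A second probe set of Soat1 had 0.30 (CI 0.11 to 0.49, adjusted p = 0.190 from limma), higher in 4 of 5 pairs. Nceh1, a hydrolase of stored cholesteryl ester, had -0.10 (CI -0.24 to 0.05). The sterol carriers Stard3 (-0.05), Stard4 (0.01, 0.17 and 0.08) and Osbp (-0.07 and 0.13) did not pass on any probe set.

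Further genes of the pathway were read in the same fit. Of 14 measured genes among 18 other SREBP targets, 1 was called higher and 0 lower. It was Scd2, a stearoyl-CoA desaturase that is also an LXR target (the study's own annotation names this probe set Scd), with signals of 4.79, 4.11, 1.85, 4.44 and 3.50 in control macrophages 1 to 5 and 7.25, 5.85, 4.42, 6.09 and 4.82 in mye-macrophages 1 to 5, higher in 5 of 5 pairs (1.95, CI 1.57 to 2.33, limma with the block, adjusted p = 0.00387). On its other probe sets, with control means of 0.97, 0.81 and 0.87, Scd2 had -0.08, 0.13 and 0.19 and was not called. After Scd2, the next largest were Tmem97, a sterol-binding protein of the endoplasmic reticulum, at -0.23 (lower in 5 of 5 pairs, adjusted p = 0.239), and Lpin1, a phosphatidate phosphatase, at 0.15. Of 10 measured genes of retention and degradation at the endoplasmic reticulum, 0 were called, and Ube2g2 (-0.12), Aup1 (-0.10) and Pgrmc1 (-0.10) had the largest sizes. Of 3 genes of cholesterol release from lysosomes, Scarb2, a lysosomal membrane protein, was called higher (0.42, CI 0.26 to 0.59, adjusted p = 0.0463 from limma), while Lipa, the acid lipase, had -0.04 and Npc2, the carrier of freed cholesterol, 0.03.

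Unlike the treatments, the replicate numbers did separate members. A test of the replicate number itself, added after the values had been seen, called 19 of the 56 member probe sets (33.9%) with limma's F test and adjustment over all probe sets, against 16.4% of all. By gene these were 12 of 34 (35.3%) against 21.5% of all genes. The count was 6 without replicate 4 (6.61% of all probe sets) and 9 without replicate 2 (7.05%), fits that also hold fewer samples. Over probe sets above the median signal, which left out 6 member probe sets, it was 25, against 37.7% of all kept. The range of the 5 pair means had a median of 0.503 over the members and of 0.334 over all genes. It exceeded the size of the myelin difference in all 34 members, as it did in 97.2% of all genes. A range of 5 values tends to exceed a single mean difference even where neither has an effect, so this does not weigh the replicate number against myelin.

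Insig1 had the widest range of the brightest probe sets, 1.31 on the log2 scale or 2.49-fold from replicate 1 to replicate 4 (F test of limma, adjusted p = 0.000428), beside a myelin difference of -0.06. Mbtps1 (0.95), Tm7sf2 (0.91), Acaca (0.87), Soat1 (0.81), Srebf2 (0.78), Nceh1 (0.77), Fdps (0.75), Pmvk (0.66), Cyp51 (0.64), Fdft1 (0.56) and Msmo1 (0.55) also passed. Sqle had 0.66 and did not (adjusted p = 0.0646). Among the dimmer probe sets, that of Fasn had 1.15 (adjusted p = 0.00139).

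The members did not share a single order of replicates. Replicate 4 was the highest sample for 13 of 34 genes in control macrophages and for 12 in mye-macrophages, where it was highest for 24.2% and 24.6% of all genes. Insig1, Srebf2, Mbtps1, Fdps, Sqle and Cyp51 were of this kind. Replicate 2 was highest for 12 genes in control macrophages and 7 in mye-macrophages, against 27.6% and 27.7% of all genes, with Tm7sf2, Soat1 and Fasn among them in both groups. For 19 members (55.9%) the same replicate number was highest in both groups, against 43.2% of all genes. The median deviation of the regulators from their gene means was 0.20 and 0.30 in control and mye-macrophage replicate 4, against -0.30 and -0.12 in replicate 2. In the sterol branch the medians of all samples lay between -0.13 and 0.10.

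**Figure D3:**
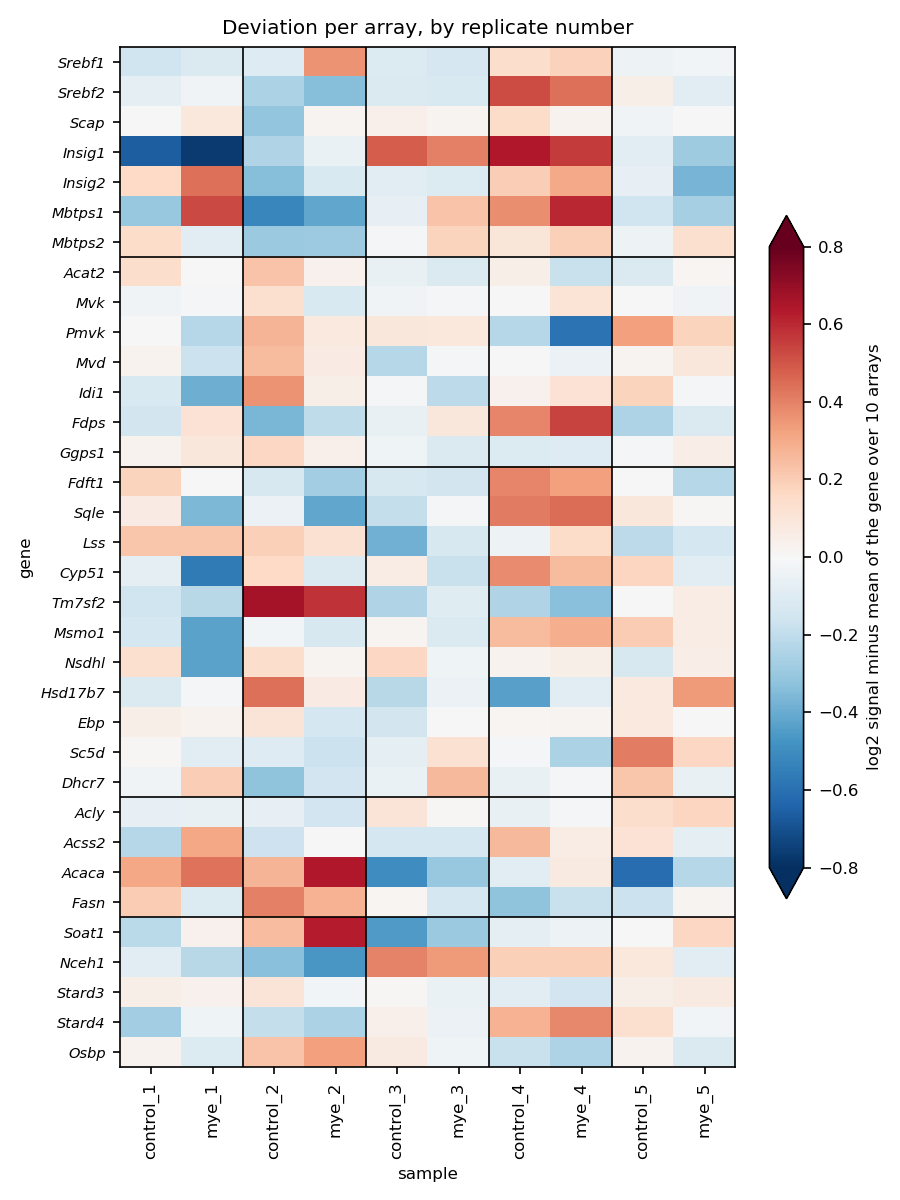
Log2 signal minus the mean of the gene over 10 arrays, for the 34 members (rows, grouped by role) in each sample (columns, control and mye-macrophages of 1 replicate number side by side). Colours repeat within replicate numbers, as for Insig1, Srebf2 and Fdps in replicate 4 and Tm7sf2 in replicate 2, and change little between control and mye-macrophages.

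**Figure D4:**
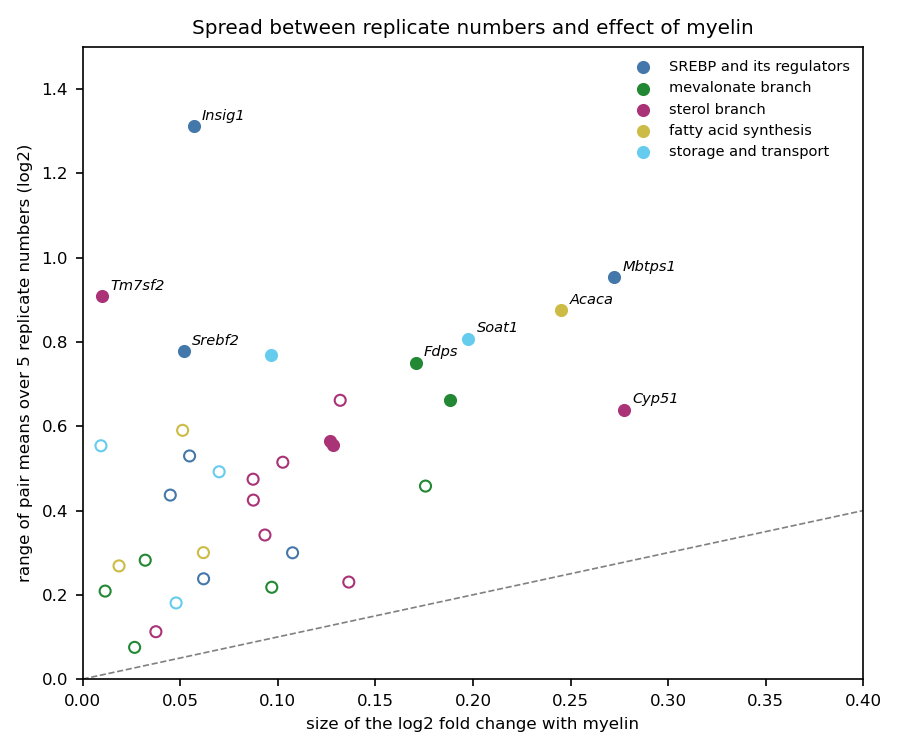
Range of the 5 pair means (log2) against the size of the log2 fold change with myelin for the 34 members on their brightest probe sets; filled points passed the F test between replicate numbers (adjusted p under 0.05), open points did not, and the dashed line marks equal values. All 34 lie above the line, from Insig1 (range 1.31, size 0.06) to Cyp51 (range 0.64, size 0.28). The range also exceeded the size in 97.2% of all genes.

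Some markers of the cells in the cultures moved with the replicate number as well. The macrophage markers Lyz2 (11.9 to 12.6), Cd68 (11.1 to 11.5) and Cd14 (9.54 to 11.7) were bright in every sample. Itgam, Fcgr1a and Csf1r had no sample below 6.3, and Adgre1 ran from 5.09 to 7.49. Not every marker of the labelled cell type was bright. Mrc1 ran from 0.95 to 5.42, and Cd163 lay under 1.2 in 9 of 10 samples. Of 9 macrophage markers measured, 0 were called with myelin, where 29 of all 14217 genes were called higher and 28 lower. Between replicate numbers 6 of the 9 were called, against 21.5% of all genes. Mrc1, the mannose receptor, moved most with myelin (log2 fold change 0.71, CI 0.43 to 0.99, higher in 5 of 5 pairs, adjusted p = 0.0530 from limma, and 0.0265 over the more variable probe sets), followed by Fcgr1a (0.24) and Cd163 (0.23). The control mean of Mrc1 (2.29) lay below the median of all values (2.32). Cd163 was higher in 1 of 5 pairs, by 1.66 in pair 4. Between replicate numbers, the pair means of Mrc1 ranged over 3.8 and those of Adgre1 over 2.2. Cpa3, a mast cell protease, was highest in replicate 4 (7.92 in control and 7.995 in mye-macrophages) and lowest in replicate 2 (3.19 and 2.83; F test of limma, adjusted p = 0.000393). Dcn, a proteoglycan of fibroblasts, was also highest in replicate 4 (6.22 and 6.29), against 1.94 to 4.48 elsewhere (adjusted p = 1.62e-06). The mast cell and granulocyte markers had 3 of 6 called between replicate numbers (Cpa3, Fcer1a and Mcpt1) and summed to 10.2 to 20.5 in control and 10.3 to 20.7 in mye-macrophages. Kit, Epx and Prg2 lay below the median of all values in every sample and were not called. The mesothelial and fibroblast markers had 2 of 9, near the share of all genes (21.5%), with sums of 12.4 to 16.4 and 12.5 to 17.0, and Lum and Col3a1 lay under 1 in every sample. The T, B and NK cell markers had 3 of 9 called between replicate numbers. Among these, Nkg7 had a range of 2.19 over the pair means (F test of limma, adjusted p = 8.1e-05). The part of these cells in the replicate differences of Insig1, Srebf2 and the other members was not tested.

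With myelin, 2 of 19 oligodendrocyte markers were called higher on their brightest probe sets, Mobp (log2 fold change 3.60) and Bcas1 (1.76), and Plekhb1 (0.40) was the next largest. Mbp, the myelin basic protein gene, was called higher on a dimmer probe set (3.37, CI 2.87 to 3.87, higher in 5 of 5 pairs with no overlap between the groups, adjusted p = 0.00175 from limma), while its brightest probe set had -0.20 and the remaining one -0.04. The list summed to 39.3 to 44.9 in control and 45.9 to 49.7 in mye-macrophages, and Olig1 and Olig2, which define the lineage, lay near 1 in both groups. Of the 9 T, B and NK cell markers 0 were called with myelin (Cd2 0.20, Cd3d -0.19 and Klrd1 0.16 were the largest), and 0 of the mast cell and mesothelial markers. The gap between the 3 prime and 5 prime probe sets of beta-actin, which widens as RNA degrades, was 3.02 ± 0.30 in control and 3.30 ± 0.32 in mye-macrophages (SD, n = 5) and larger with myelin in 4 of 5 pairs (two-sided exact sign-flip permutation test, p = 0.188, where 5 pairs allow no p below 0.0625). Its part in the values of the members was not tested.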

How the data were processed

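All 10 arrays were used, 5 per group. Per the labels and the methods, the authors deposited log2 RMA values made with the affy package (version not given in the sources used here). Array medians were 2.30 to 2.34. Control probe sets of the manufacturer (57) were dropped. The fit used limma 3.58.1 under R 4.3.3 (lmFit, eBayes) on all 31042 remaining probe sets with the replicate number as a block, adjusted by Benjamini-Hochberg at 0.05. The numbers pair the samples: deviations from group means correlated at 0.404 to 0.791 within numbers and at most 0.279 across them (threshold 0.1), and 10 of 10 samples matched their own number best. What the numbers stand for is not given in the sources used here. The methods' unpaired test and variance filter were alternatives, as were scaling, array weights, variance prior, signal filter, probe sets averaged per gene and samples left out. A gene takes its probe set with the highest mean. Per-sample values are given for the 8 largest differences and for Cyp51, Sqle, Insig1, Srebf1, Srebf2, Acss2 and Fasn. In the other pathway lists, genes that passed and the 3 largest are named, and marker genes were chosen after their values were seen. Scripts were tested on simulated data, where the blocked fit called 16% of 1.25-fold, 64% of 1.5-fold, 92% of 2-fold and 100% of 4-fold changes. Differences of the members' size, at most 1.21-fold on the brightest probe sets, would thus mostly be missed. For arrays, the number of samples limits precision. Members and lists were chosen with earlier results of these data known. Promoters were searched with Python 3.11.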

Additional observations from a re-analysis of the deposited data

Results flagged for a closer look

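In 8 of the 112 groups of 5 samples (56 probe sets in each treatment, 7.14%), the highest or lowest sample stood apart from the other 4 by Dixon's test at the 95% level (critical value 0.71), where chance gives about 5%, or 1 in 20. The signal of Cyp51 on its dimmer probe set 1387020_at was 4.57 in control macrophage replicate 4, above the others. Ebp (1386990_at) had 6.42 in mye-macrophage replicate 2, below the others, and Ggps1 (1377866_a_at) had 3.02 in the same sample, above them. Control macrophage replicate 2 was above the others for Mvk (1368232_at, 4.51) and Tm7sf2 (1389725_at, 4.37). Hsd17b7 (1387233_at) had 3.11 in control macrophage replicate 3, below the others. Sc5d (1390777_at) had 5.09 in control macrophage replicate 5, above the others. Nsdhl (1392988_at) had 5.18 in mye-macrophage replicate 1, below the others.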

How the results depend on the processing

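Under all 24 alternatives 0 members were called. In those read by probe set, which leaves out the mean of all probe sets of a gene, 0 member probe sets were called. The lowest adjusted p over fits with the block was 0.0628. Without the replicate block, limma called 0 of all 31042 probe sets, so its 0 called members say nothing particular to the members. In that fit 0 member probe sets had an unadjusted p under 0.05, and the lowest adjusted p was 0.996. The methods' t-test after its variance filter also gave 0 at an unadjusted p under 0.05. That t-test and the fits with single samples left out had no block either, so their 0 called members were not taken as further evidence. The median of -0.03 was unchanged without the block, since the block leaves differences as they are. That median ran from -0.04 to 0.0025 as pairs were left out and from -0.04 to -0.0032 as samples were left out. With quantile normalization the median was -6.3e-05, and with array weights it was -0.0098. The number of member probe sets that differed between replicate numbers (19 of 56, against 16.4% of all) was 22 of 36 under the variance filter, against 38.7% of all kept. It was 25 under the signal filter, which left out 6 member probe sets, against 37.7% of all kept. It was 26 with the other prior (22.3% of all), 18 to 22 under scalings and weights, and 6 to 22 as pairs were left out. Every sign that turned belonged to a difference between -0.10 and 0.10, the largest being Hsd17b7 (0.10), Nceh1 (-0.10) and Sc5d (-0.09). Quantile normalization gave 0.0053 for Mvk, 0.020 for Ggps1, 0.028 for Tm7sf2 and 0.0017 for Acly, and the mean of all probe sets gave -0.0082 for Hsd17b7 and 0.028 for Osbp. As pairs or samples were left out, the log2 fold change ran from -0.17 to 0.072 for Srebf2, -0.0096 to 0.11 for Scap, -0.23 to 0.13 for Insig1, -0.048 to 0.15 for Insig2, -0.024 to 0.12 for Mbtps2, -0.062 to 0.028 for Mvk, -0.093 to 0.027 for Mvd, -0.041 to 0.028 for Ggps1, -0.16 to 0.16 for Tm7sf2, -0.085 to 0.015 for Ebp, -0.16 to 0.0033 for Sc5d, -0.064 to 0.018 for Acly, -0.056 to 0.13 for Acss2, -0.14 to 0.043 for Fasn, -0.19 to 0.0077 for Nceh1 and -0.085 to 0.080 for Stard4. The sign of 24 of 34 genes held whichever pair was left out, Cyp51 (-0.37 to -0.17), Fdps (0.06 to 0.29), Acaca (0.12 to 0.35) and Soat1 (0.07 to 0.30) among them, also with samples left out. The cause of these shifts was not tested. Signal over background is not given by RMA values, and 6 member probe sets had a mean under the median of all values.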
